A study of Mus musculus with 14 samples.

Results

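Isolated epithelial cells of the mouse epididymis are compared here between the caput, the segment next to the testis, and the cauda, the tail segment in which sperm are stored. The comparison rests on 4 of the 14 small RNA libraries of the study, 2 from caput and 2 from cauda, and on the 216 mature miRNAs with a mean count above 10 in at least 1 of the 2 regions. These 216 are drawn from 677 names in the table of epithelial cells, and the tables of the 2 preparations hold 999 names together. The study sequenced small RNA of epithelial cells and of whole tissue along the duct to learn how its miRNAs differ by region. Every library came from male Swiss mice of 8 weeks, and the labels name no treatment or genetic change. For the cells, tissue was digested with trypsin and collagenase, and cells that stayed in suspension were kept. The cells that attached to the dish, described as fibroblasts and muscle cells, were left behind, and the authors describe what was kept as highly enriched epithelium. Blood vessels had been rinsed with buffer after death. Sperm had been flushed from the cauda through the duct, and from the caput they were released through cuts made in the tissue. RNA of several mice was pooled in each replicate, so that a library does not stand for 1 animal. The sources disagree on whether the replicates are biological or technical, and if they are technical, the p-values below measure the spread between libraries and not between mice.

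As background, a miRNA guides Argonaute proteins to messenger RNAs, largely through its seed (bases 2 to 8 of the mature strand), and lowers the output of those messages. miRNAs that share a seed are counted as a family because they can pair with the same sites. The epithelium of the epididymis makes the fluid in which sperm mature, with the caput known for secretion of proteins and the cauda for storage of sperm, and its gene expression is known to differ strongly by region.

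The caput libraries held 362867 and 324907 counts and the cauda libraries 283284 and 179060 counts. CPM below are counts divided by library totals and TMM factors to bring the libraries to 1 scale. By totals alone, 10 counts equalled 27.6 and 30.8 CPM in the caput and 35.3 and 55.8 CPM in the cauda. The highest count in each of the 4 libraries was that of miR-143-3p, a miRNA known for its high level in smooth muscle. It took 12.4 and 17.8% of the counts in the caput and 30.1 and 17.9% in the cauda. The epithelial marker list, which holds the miR-200 family, miR-205 and miR-203, took 2.58 and 2.54% in the caput and 3.23 and 4.87% in the cauda. Its most abundant member was miR-205-5p, known from basal and other stratified epithelia, and 0 of its 13 listed names lacked counts in all 4 libraries. The libraries thus hold the defining epithelial miRNAs, and a smooth muscle miRNA at a higher level than any of them. Because these are bulk samples, fewer cells of a type and less RNA per cell cannot be told apart in any value below.

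The 2 libraries of a region did not vary equally. Among 120 miRNAs with a mean count above 50 in the caput, the median absolute log2 difference between its libraries was 0.19, and 1 differed by more than 2-fold, miR-145-5p with 4237 and 9043 CPM. Among 118 such miRNAs in the cauda the median was 0.30, and 9 differed by more than 2-fold. Cauda library 1 was the higher for 3 of the 9. Those were the muscle miRNAs miR-145-5p (19652 and 4886 CPM) and miR-143-3p (317643 and 153519 CPM), together with miR-140-5p (369 and 182 CPM), known from cartilage. Cauda library 2 was the higher for the other 6. They included miR-34c-5p (1649 and 4317 CPM), miR-34b-5p (123 and 369 CPM) and miR-34b-3p (116 and 378 CPM), miRNAs of germ cells and of ciliated epithelia. The same library was also higher for miR-375-3p (116 and 536 CPM), miR-881-3p (198 and 455 CPM) and miR-470-5p (201 and 455 CPM). The cauda libraries therefore stand apart from each other in miR-143-3p, miR-145-5p and miR-34 counts among others, while the caput libraries do so for miR-145-5p.

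Of the 216 miRNAs, 199 had a mean count above 10 in the caput and 191 in the cauda. Both regions held 174 (80.6%), while 25 (11.6%) passed in the caput alone and 17 (7.87%) in the cauda alone. The caput also had more with a rule of over 10 counts in both libraries (26 against 13) and without caput library 2 or either cauda library, and without caput library 1 the counts were 20 and 20. With a higher threshold of 55.8 CPM, which is 10 counts in the smaller cauda library, 192 miRNAs passed, 10 of them in the caput alone and 19 in the cauda alone. The 5 most abundant on the caput side were miR-9-5p, miR-467a-5p, miR-138-5p, miR-10a-3p and miR-153-3p, with mean counts of 158, 92, 52, 23 and 19.5. On the cauda side they were miR-881-3p, miR-743b-3p, miR-190-5p, miR-381-3p and miR-741-3p, with mean counts of 74, 36, 28, 25 and 25. At the edge of the rule, miR-9-3p, miR-669c-5p and miR-671-3p stood just inside with 10.5 counts in their higher region, and miR-1843b-5p just outside with 10.

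Between caput and cauda, 56 of 216 miRNAs (25.9%) were called differentially expressed by limma-voom, at a false discovery rate under 0.05 and with at least a 2-fold change. SE below is the standard error of a log2 fold change, and a log2 fold change above 0 means a higher level in the cauda. Higher levels in the cauda were called for 30 (13.9%) and lower levels for 26 (12%), and the median log2 fold change of all 216 was -0.00. Scaling by library totals, which moves that median up by 0.19, called 39 higher and 19 lower, and DESeq2's Wald test called 33 higher and 18 lower, so that the share of rises was 67.2% and 64.7% in place of 53.6%. The 2 libraries of one region lay on one side of both libraries of the other for 161 of 216 miRNAs (74.5%), with the cauda above for 77 and below for 84. All 56 called miRNAs are among the 161, which stands beside that background of 74.5%. Among the called, 30 changed by at least 4-fold (19 rises and 11 falls) and 11 by at least 8-fold. A further 19 had fold changes of at least 2 without passing the adjusted threshold. Without caput library 1 the count was 29 (13 higher and 16 lower), and without caput library 2 it was also 29 (9 higher and 20 lower). The call held in each of the 6 fits that left out 1 epithelial library for 23 of the 56, made up of 8 rises and 15 falls. Leaving out a caput library ended more calls among the rises (18 and 21 of 30) than among the falls (10 and 8 of 26).

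**Figure D1:**
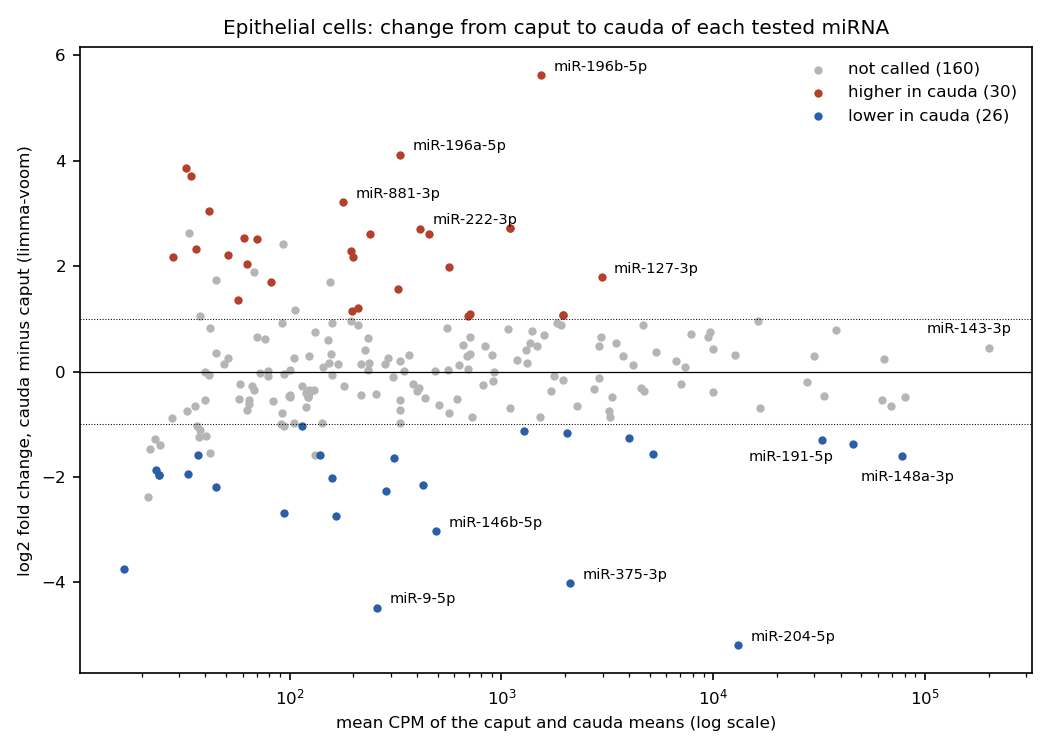
Each point is 1 of the 216 tested miRNAs, with the mean of its caput and cauda levels in CPM on the log-scaled horizontal axis and the limma-voom log2 fold change, cauda minus caput, on the vertical axis; dotted lines mark a change of 2-fold. The 26 falls include miR-148a-3p and miR-191-5p at the abundant end, where none of the 30 rises lies.

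The rises and the falls differ in how much of the library they make up. In the caput the 30 miRNAs that rose took 0.610 and 0.608% of all counts, and in the cauda 2.81 and 2.38%. The 26 that fell took 26.5 and 25.0% of counts in the caput and 8.05 and 11.6% in the cauda. Each set separates the libraries of the 2 regions without overlap, which follows from how its members were chosen. The 160 miRNAs that were not called took 72.7 and 74.2% in the caput and 88.9 and 85.8% in the cauda.

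miR-204-5p, a miRNA known from the eye and from secretory epithelia such as the choroid plexus, fell most. It had 26404 and 24571 CPM in the caput and 631 and 780.1 CPM in the cauda. Both cauda libraries lay far below both caput libraries, and the gap between regions was much wider than that within them. The change was 36.4-fold, a log2 fold change of -5.19 (SE 0.21, adjusted p = 1.59e-06), and it was called in all 6 fits with a library left out. Its deposited counts include fractions. The other names of its family, miR-204-3p and miR-211-5p, were not tested, so that 1 of 3 listed names stands for it. Its gene, Mir204, lies on chromosome 19 from 22750605 to 22750672 of GRCm38, in an intron of Trpm3.

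miR-9, best known from the nervous system, gave the next fall. miR-9-5p had 599 and 400.3 CPM in the caput and 26.1 and 14.4 CPM in the cauda. That is a log2 fold change of -4.48 (SE 0.55, adjusted p = 0.000870), with a wide gap between the regions. The other arm, miR-9-3p, had 17 and 4 counts in the caput and 0 in both cauda libraries, so that most of its counts lie in caput library 1. Intervals given below for low counts cover counting error alone. From mean CPM, with 3 counts per library as the limit of a count of 0, miR-9-3p was at least 2.58-fold lower in the cauda. This limit rests largely on caput library 1. With no counts in the cauda the size of the log2 fold change of miR-9-3p depends on an offset, from -5.90 to -3.58 in 7 alternative settings. The value, -3.75 in the full fit, was -2.78 without caput library 1 and -4.69 without caput library 2. The call of miR-9-3p was lost without caput library 1 (adjusted p = 0.0762) and without cauda library 1 (0.106) or 2 (0.111). Both arms of miR-9 passed the count filter through the caput alone, which favours lower values in the cauda. miR-375-3p, known from endocrine cells, had 4228 and 3516 CPM in the caput and 116 and 536 CPM in the cauda. Its cauda libraries differed by 4.63-fold from each other, with the higher of them well under both caput libraries. Its log2 fold change was -4.01 (SE 0.51, adjusted p = 0.000905), which was -2.78 without cauda library 1 and -5.04 without cauda library 2.

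miR-146b-5p fell while miR-146a-5p, with the same seed, was not called. It had 755 and 1007 CPM in the caput and 97.0 and 115 CPM in the cauda, a log2 fold change of -3.03 (SE 0.32, adjusted p = 0.000708). miR-146a-5p, known with miR-146b-5p for dampening innate immune signals, had 617 and 484 CPM in the caput and 918 and 809 CPM in the cauda. The libraries of the regions do not overlap for either one, with the cauda lower for the first and higher for the other. For miR-146a-5p the log2 fold change was 0.66 (SE 0.22, adjusted p = 0.0443), under 2-fold, and the signs of both held under all 9 alternative settings run for them beside leaving out a library. The sequences of the leading falls and of miR-146a-5p are shown to make these seeds visible, 5′ to 3′ from RefSeq on GRCm38.p6, with the seed in capitals.
miR-204-5p: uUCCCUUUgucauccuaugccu
miR-9-5p: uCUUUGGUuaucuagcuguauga
miR-9-3p: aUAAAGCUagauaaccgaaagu
miR-146b-5p: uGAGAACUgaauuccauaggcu
miR-146a-5p: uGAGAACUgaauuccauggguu
miR-138-5p: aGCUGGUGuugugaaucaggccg
miR-672-5p: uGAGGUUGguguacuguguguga
Of the 216 tested miRNAs 171 matched a RefSeq entry by name, and of the 56 called 43 did. The 13 called miRNAs without a match are named only, and they are miR-3107-5p, miR-486-5p, miR-190-5p, miR-150-5p, miR-3096-5p, miR-451, miR-140-5p, miR-142-5p, miR-669a-5p, miR-669p-5p, miR-467a-5p, miR-467d-5p and miR-375-3p.

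Of other falls among the 15 largest, miR-138-5p, miR-1251-5p and miR-10a-3p passed the count filter through the caput alone. miR-138-5p had 199.6 and 129 CPM in the caput and 22.4 and 23.9 CPM in the cauda. miR-672-5p had 449 and 491 CPM in the caput and 85.8 and 110.1 CPM in the cauda. Neither overlaps between regions, and both kept their call in all 6 fits with a library left out, with log2 fold changes of -2.69 (SE 0.50, adjusted p = 0.00548) and -2.26 (SE 0.27, adjusted p = 0.000870). miR-31-5p, known from squamous epithelia, had 249 and 252 CPM in the caput and 44.8 and 86.1 CPM in the cauda. Its caput libraries were nearly equal and both cauda libraries were far lower, with a log2 fold change of -2.01 (SE 0.35, adjusted p = 0.00414). The call of miR-1251-5p, with 18 and 16 counts in the caput and 4 and 2 in the cauda, ended without any one of the 4 libraries, with adjusted p between 0.0605 and 0.0701, and also under the Wald test (0.0650). For miR-10a-3p, with 28 and 18 counts in the caput and 8 and 1 in the cauda, the call ended without caput library 1 (adjusted p = 0.153), caput library 2 (0.0712) or cauda library 2 (0.136), and under the Wald test (0.124). Its log2 fold change of -2.20 was -3.29 without cauda library 1 and -1.20 without cauda library 2.

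The 2 largest rises were those of miR-196b-5p and miR-196a-5p, miRNAs encoded within the Hox clusters, whose genes set position along the body axis. miR-196b-5p had 90.4 and 35.5 CPM in the caput and 3999.7 and 2029 CPM in the cauda. For miR-196a-5p the levels were 37.4 and 32.3 CPM in the caput and 690.3 and 565 CPM in the cauda. In both cases the lower cauda library was many times above the higher caput library. The changes were 49.0-fold (log2 fold change 5.61, SE 0.55, adjusted p = 0.000549) and 17.3-fold (log2 fold change 4.11, SE 0.35, adjusted p = 0.000286), and both were called in all 6 fits with a library left out. The log2 fold change of miR-196b-5p was 6.28 without caput library 1 and 4.97 without caput library 2. The mature strands share their seed and are shown because they give the 2 largest rises.
miR-196b-5p: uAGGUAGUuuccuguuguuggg
miR-196a-5p: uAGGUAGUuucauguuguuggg
Mir196b lies on chromosome 6 from 52230081 to 52230165, in an exon of Hoxa9. miR-196a-5p has 2 genes in the annotation, Mir196a-1 on chromosome 11 from 96265164 to 96265265 and Mir196a-2 on chromosome 15 from 102973350 to 102973434, the latter in an intron of Hoxc5. The mature counts do not tell these genes apart. The other miRNAs of the Hox clusters were not called higher. miR-10a-5p had 81541 and 67209 CPM in the caput and 48474 and 53124 CPM in the cauda, and miR-10b-5p had 94656 and 74821 CPM in the caput and 51339.9 and 55163 CPM in the cauda. Both were lower in the cauda without overlap, by under 2-fold, with log2 fold changes of -0.54 (adjusted p = 0.0378) and -0.66 (adjusted p = 0.0318). In the list of Hox miRNAs as a whole, 5 of 11 names were tested, 2 rose and 1, miR-10a-3p, fell (median log2 fold change -0.54), against 30 and 26 of 216 among all tested.

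**Figure D2:**
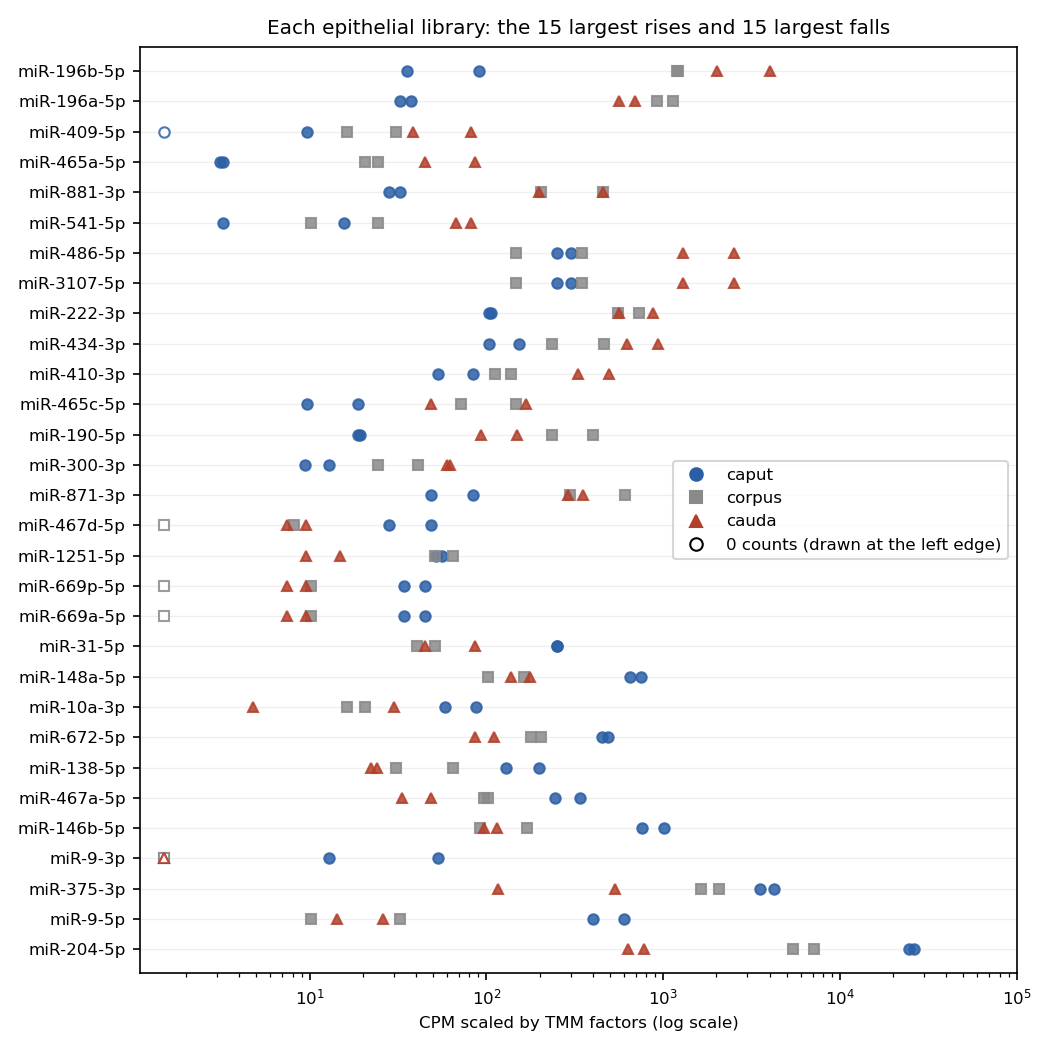
CPM scaled by TMM factors, on a log scale, of the 15 largest rises and the 15 largest falls in each of the 6 epithelial libraries, with circles for caput, squares for corpus and triangles for cauda. Open symbols at the left edge are libraries with 0 counts. The 30 are the extremes of 56 calls, none of which has overlap of caput and cauda, against 161 of all 216 (74.5%) without it.

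Among the rises, 9 are miRNAs of the Dlk1-Dio3 region on chromosome 12, an imprinted region whose miRNAs are made from the maternal copy. The most abundant was miR-127-3p, which targets the imprinted gene Rtl1 on the opposite strand, with 1300.2 and 1304 CPM in the caput and 5716 and 3561 CPM in the cauda. miR-434-3p had 153 and 103 CPM in the caput and 933 and 627 CPM in the cauda. miR-411-5p had 196 and 249 CPM in the caput and 1198 and 622 CPM in the cauda. In all 3 both cauda libraries lay far above both caput libraries, cauda library 1 being the higher. For miR-410-3p the levels were 53.0 and 83.9 CPM in the caput and 496 and 330.2 CPM in the cauda, again without overlap. Their log2 fold changes were 1.8, 2.60, 1.98 and 2.60, with standard errors of 0.24, 0.37, 0.37 and 0.36 and adjusted p-values of 0.000989, 0.00133, 0.00548 and 0.00117. Of these, miR-127-3p, miR-434-3p and miR-410-3p were called in all 6 fits with a library left out, while miR-411-5p was not called without caput library 1 (log2 fold change 1.81, adjusted p = 0.0672) or caput library 2 (log2 fold change 2.15, adjusted p = 0.0529).

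The other 5 Dlk1-Dio3 miRNAs tested passed the count filter through the cauda alone, which favours higher values there. miR-381-3p had 24.9 and 22.6 CPM in the caput and 123 and 81.4 CPM in the cauda, and miR-379-5p had 18.7 and 16.1 CPM in the caput and 93.3 and 76.6 CPM in the cauda, without overlap in either. In miR-541-5p the counts were 5 and 1 in the caput and 18 and 17 in the cauda. miR-300-3p had 3 and 4 counts in the caput and 16 and 13 in the cauda. In miR-409-5p they were 0 and 3 against 22 and 8, a ratio of summed counts at equal depth of 13.2 with an exact 95% interval from 4.11 to 67.7. Of the 5, calls were lost without caput library 1 for miR-381-3p (adjusted p = 0.0683), miR-379-5p (0.0540), miR-300-3p (0.0698) and miR-409-5p (0.114). Without caput library 2 they were lost for miR-381-3p (0.0712), miR-379-5p (0.0629), miR-300-3p (0.0635) and miR-541-5p (0.0682), and without cauda library 1 for miR-409-5p (0.0537). Without caput library 1 the log2 fold change of miR-541-5p, 3.04 in the full fit, was 3.96, and without caput library 2 it was 2.14. For miR-409-5p, with 3.86 in the full fit, the values were 2.41 and 5.27.

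Of 57 Dlk1-Dio3 names in the table, 9 were tested and 48 lay under the count filter. The 9 tested comprise 9 rises and 0 falls, with a median log2 fold change of 2.32, against 30 and 26 of 216 and a median of -0.00. The 4 that passed in both regions are the 4 given first above. All 4 rose, against 19 rises and 16 falls among the 174 miRNAs that passed in both. The 48 untested names together had 24 and 30 counts in the caput and 108 and 69 in the cauda, which is 74.7 and 96.7 CPM against 402 and 329 CPM. Over all 461 untested names of the table the sums were 1917 and 1691 CPM in the caput and 2140.4 and 2127 CPM in the cauda. 9 of the 9 were also called under the quasi-likelihood test, the Wald test, size factors and library totals. On GRCm38 the tested hairpins run over chromosome 12 from 109592846 (Mir127) to 109743795 (Mir410), on the plus strand, and Mir541, Mir409 and Mir410 lie in the non-coding gene Mirg. They lie side by side but share no seed, since the 9 mature strands carry 9 different seeds. They are printed to show this.
miR-127-3p: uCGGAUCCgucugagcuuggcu
miR-434-3p: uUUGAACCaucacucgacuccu
miR-379-5p: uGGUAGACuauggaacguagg
miR-411-5p: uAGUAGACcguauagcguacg
miR-300-3p: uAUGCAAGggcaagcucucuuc
miR-381-3p: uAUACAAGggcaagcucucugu
miR-541-5p: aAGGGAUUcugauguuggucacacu
miR-409-5p: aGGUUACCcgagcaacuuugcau
miR-410-3p: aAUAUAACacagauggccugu
Beside these stand the fibroblast and stromal markers, with 0.266 and 0.312% of counts in the caput and 0.667 and 0.548% in the cauda over the 6 names of that list. Of its 5 tested names 3 had a log2 fold change above 0, and 2 of those, miR-199a-3p and miR-199b-3p, are 1 sequence with identical counts. The others, miR-199a-5p and miR-214-3p, went the other way (-0.32 and -1.02). The part of these markers in the rise of the Dlk1-Dio3 miRNAs was not tested.

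A block of miRNA genes on the X chromosome, from miR-465 to miR-883, is known for expression in the testis and epididymis, and 8 of its 32 names were tested. miR-871-3p had 84.2 and 48.4 CPM in the caput and 291 and 354 CPM in the cauda. miR-470-5p had 96.7 and 42.0 CPM in the caput and 201 and 455 CPM in the cauda. Both lay higher in the cauda without overlap, and they are the 2 members that passed the filter in both regions, with log2 fold changes of 2.29 (SE 0.43, adjusted p = 0.00579) and 2.17 (SE 0.58, adjusted p = 0.0208). Both were called, against 19 rises and 16 falls among the 174 miRNAs that passed in both regions. The call of miR-871-3p was lost without caput library 2 (log2 fold change 1.90, adjusted p = 0.0642). That of miR-470-5p was lost without caput library 1 (2.76, adjusted p = 0.0683), caput library 2 (1.59, adjusted p = 0.150) or cauda library 2 (1.63, adjusted p = 0.101), and without cauda library 1 its log2 fold change was 2.84.

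The other 6 X-linked members passed through the cauda alone. miR-881-3p had 9 and 10 counts in the caput and 53 and 95 in the cauda. miR-465c-5p had 6 and 3 counts in the caput and 13 and 35 in the cauda. Cauda library 2 was the higher of the pair in both, and caput counts were low. With 1 and 1 counts in the caput and 12 and 18 in the cauda, miR-465a-5p had a ratio of 19.8 (exact 95% interval 5.03 to 171). These 3 were called, whereas miR-741-3p (log2 fold change 1.88, adjusted p = 0.0687), miR-743b-3p (2.42, 0.0891) and miR-871-5p (2.64, 0.0598) were not. miR-871-5p had 2 counts in each caput library and 7 and 20 in the cauda, with most cauda counts in library 2. Its ratio was 8.92 (exact 95% interval 3.11 to 35.1) and rests largely on that library. The list thus held 5 rises and 0 falls of 8 tested, 6 of which the filter let in through the cauda alone, against 30 and 26 of 216 (median log2 fold change 2.48), with 8 called by the quasi-likelihood and the Wald test, 6 with size factors and 4 with library totals. The call of miR-465c-5p is the one lost with library totals (adjusted p = 0.0508), and it was also lost without caput library 1 (adjusted p = 0.166), caput library 2 (0.208) or cauda library 2 (0.111). Its log2 fold change of 2.53 was 3.53 without cauda library 1 and 1.73 without cauda library 2. Fitted with the replicate number as a block, miR-465c-5p was not called either (adjusted p = 0.0519), and the list held 4 rises. Without caput library 1 or 2 the calls of miR-881-3p (adjusted p = 0.0683 and 0.0655) and miR-465a-5p (0.0663 and 0.0629) ended too, and without cauda library 1 the log2 fold change of miR-881-3p, 3.21 in the full fit, was 3.92.

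Summed over its 32 names, the X-linked list took 0.0278 and 0.0200% of counts in the caput and 0.0953 and 0.257% in the cauda, with cauda library 2 the highest. The list of ciliated and germ cell miRNAs (miR-34b, miR-34c and miR-449a) was highest in the same library, with 0.375 and 0.358% of counts in the caput and 0.183 and 0.605% in the cauda, and its part in the X-linked values was not tested. On GRCm38 the tested genes lie on the minus strand of the X chromosome between 66777256 (Mir743b) and 66839125 (Mir465). Their sequences are shown because miR-465a-5p and miR-465c-5p share a seed and the others differ.
miR-465a-5p: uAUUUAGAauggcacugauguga
miR-465c-5p: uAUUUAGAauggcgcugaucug
miR-470-5p: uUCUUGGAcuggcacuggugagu
miR-741-3p: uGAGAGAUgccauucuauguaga
miR-743b-3p: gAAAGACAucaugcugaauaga
miR-871-3p: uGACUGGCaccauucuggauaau
miR-871-5p: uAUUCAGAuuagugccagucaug
miR-881-3p: aACUGUGUcuuuucugaauaga

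Another 4 of the falls are miRNAs of the Sfmbt2 intron, a large rodent cluster within an imprinted gene. Of 60 names 5 were tested, and all 5 passed the filter through the caput alone, which favours lower values in the cauda. The list thus had 0 members to set beside the 16 falls among 174 miRNAs that passed in both regions. miR-467a-5p had 337 and 245 CPM in the caput and 48.5 and 33.5 CPM in the cauda, a clear separation. It had a log2 fold change of -2.74 (SE 0.38, adjusted p = 0.00125) and was called in all 6 fits with a library left out. The list held 0 rises and 4 falls of 5 tested, against 30 and 26 of 216 (median log2 fold change -1.97). It held 4 falls by the quasi-likelihood test, 3 with size factors, 1 with library totals and 1 with the replicate number as a block. The Wald test gave 1 fall, with an adjusted p for 1 of the 5. With library totals miR-669a-5p and miR-669p-5p, which carry identical counts, had an adjusted p of 0.0678, and miR-467d-5p one of 0.0743. miR-467d-5p had 9 and 15 counts in the caput and 2 and 2 in the cauda, a ratio of 4.54 (exact 95% interval 1.56 to 18). Its call, and those of miR-669a-5p and miR-669p-5p, ended without any one of the 4 caput and cauda libraries, with adjusted p between 0.0677 and 0.233. miR-669c-5p, with 11 and 10 counts in the caput and 3 and 2 in the cauda, was not called (adjusted p = 0.0651). The 55 untested names together came to 228 and 186 CPM in the caput and 57.1 and 95.5 CPM in the cauda.

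The 10 most abundant miRNAs included 3 called falls, against 26 falls among all 216. miR-148a-3p, a miRNA of secretory epithelia, had 125378 and 109084 CPM in the caput and 34953 and 42973 CPM in the cauda. miR-191-5p had 71523 and 60652 CPM in the caput and 22402 and 28519 CPM in the cauda, and let-7c-5p had 49222 and 43167 CPM in the caput and 19163 and 18254 CPM in the cauda. In each of the 3 the lower caput library was more than 2-fold above the higher cauda library. Their log2 fold changes were -1.59 (SE 0.20, adjusted p = 0.000905), -1.38 (SE 0.22, adjusted p = 0.00223) and -1.30 (SE 0.15, adjusted p = 0.000870), and all 3 were called in all 6 fits with a library left out. The other 7 were not called. miR-22-3p had 102875 and 83874 CPM in the caput and 68745 and 64663 CPM in the cauda, and miR-21-5p had 40476 and 37169 CPM in the caput and 26625 and 29568 CPM in the cauda. Both were lower in the cauda without overlap, with log2 fold changes of -0.48 (adjusted p = 0.0689) and -0.47 (adjusted p = 0.0403). miR-26a-5p had 62636 and 54902 CPM in the caput and 71999 and 66118 CPM in the cauda, higher in the cauda by a log2 fold change of 0.23 (adjusted p = 0.316).

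The let-7 family, a set of miRNAs that rise in differentiation and restrain growth genes, had called and uncalled members. Of 20 listed names 13 were tested, all above 10 counts in both regions, and 3 fell, 0 rose and 10 were not called, against 26 falls and 30 rises of 216 (median log2 fold change -0.48). Library totals left 2 falls of 13, since let-7e-5p then changed by under 2-fold. The 3 that fell were let-7c-5p, let-7b-5p (5887 and 5366 CPM in the caput and 2448 and 2230.3 CPM in the cauda) and let-7e-5p (1833 and 1659 CPM in the caput and 873 and 718 CPM in the cauda). Their libraries separate the regions and stand close within each. let-7e-5p was under 2-fold without cauda library 2 (log2 fold change -1.0, adjusted p = 0.00835). let-7f-5p, the most abundant uncalled member, had 29971 and 29265 CPM in the caput and 25741 and 25719.7 CPM in the cauda, a log2 fold change of -0.20 (adjusted p = 0.289). let-7a-5p had 12223 and 10460.0 CPM in the caput and 8649 and 8634 CPM in the cauda, a log2 fold change of -0.39 (adjusted p = 0.0818). All 9 tested 5p members carry 1 seed, and they are listed from the lowest to the highest log2 fold change to show where their sequences part after it.
let-7c-5p: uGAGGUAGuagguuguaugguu
let-7b-5p: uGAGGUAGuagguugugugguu
let-7e-5p: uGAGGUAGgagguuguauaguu
miR-98-5p: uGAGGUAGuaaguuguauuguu
let-7a-5p: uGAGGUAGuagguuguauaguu
let-7g-5p: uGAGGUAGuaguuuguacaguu
let-7f-5p: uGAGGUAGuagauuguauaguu
let-7i-5p: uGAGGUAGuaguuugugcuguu
let-7d-5p: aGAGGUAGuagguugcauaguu
Differences between members of this or any other family were not tested.

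Seeds give a view of the whole comparison. The 171 miRNAs with a sequence carry 120 different seeds, and 29 of these seeds are shared by at least 2 tested miRNAs, 80 miRNAs in all. A call fell on 10 of the 29, against 38 of all 120 seeds. Every tested member was called for 3 seeds, called and uncalled members stood together for 7, and no seed held calls in both directions. The 3 are those of miR-196a-5p and miR-196b-5p, of miR-465a-5p and miR-465c-5p, and of miR-199a-3p and miR-199b-3p, the last being 1 sequence under 2 names with identical counts. Mixed seeds include that of miR-148a-3p, where miR-148b-3p had 577 and 533 CPM in the caput and 559.7 and 565 CPM in the cauda (log2 fold change 0.02, adjusted p = 0.949), with a sign that differed between alternative settings. The third member, miR-152-3p, had 181 and 209.8 CPM in the caput and 265 and 254 CPM in the cauda (log2 fold change 0.42, adjusted p = 0.286). In the miR-148 and miR-152 list, 6 of 6 names were tested, with 0 rises and 2 falls against 30 and 26 of 216 (median log2 fold change -0.03, and 0.01 with size factors and 0.14 with library totals). The second fall was miR-148a-5p, the other arm of the same hairpin, with 748 and 649 CPM in the caput and 138 and 177 CPM in the cauda. The arms of miR-148a fell together without overlap, and the log2 fold change of miR-148a-5p was -2.15 (SE 0.27, adjusted p = 0.000870).

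miR-222-3p rose and miR-221-3p, its neighbour on the X chromosome with the same seed, was not called. miR-222-3p had 103 and 107 CPM in the caput and 559.7 and 876 CPM in the cauda, and miR-221-3p had 1141 and 1101 CPM in the caput and 1519 and 1464 CPM in the cauda. The cauda libraries were the higher for both without overlap, by log2 fold changes of 2.71 (SE 0.33, adjusted p = 0.000870) and 0.41 (SE 0.17, adjusted p = 0.0806). The pair is known from growth control, endothelium and smooth muscle. miR-92a-3p rose among members of the miR-17-92 group and its relatives, with 508 and 394 CPM in the caput and 910.4 and 1015 CPM in the cauda. Its log2 fold change was 1.1 (SE 0.28, adjusted p = 0.0168), lost without caput library 1 (adjusted p = 0.0683), caput library 2 (0.125) or cauda library 2 (0.0696). miR-25-3p, with its seed, had 2445 and 2115 CPM in the caput and 3638 and 3561 CPM in the cauda (log2 fold change 0.66, adjusted p = 0.0140). miR-107-3p, chosen with miR-103-3p after their values were seen, fell, with 156 and 155 CPM in the caput and 82.1 and 67.0 CPM in the cauda, and miR-103-3p, its near copy, which differs from it near the 3′ end, had a log2 fold change of -0.13 (adjusted p = 0.542). miR-107-3p was not called by the Wald test, with size factors or with library totals, nor without caput library 1 (adjusted p = 0.110), caput library 2 (0.106) or cauda library 2 (0.0616). These names of mixed seeds are printed in their groups.
miR-148a-3p: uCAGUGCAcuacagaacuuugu
miR-148b-3p: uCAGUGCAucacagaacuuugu
miR-152-3p: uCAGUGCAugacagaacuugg
miR-222-3p: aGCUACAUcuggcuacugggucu
miR-221-3p: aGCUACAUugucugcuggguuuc
miR-92a-3p: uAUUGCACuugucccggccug
miR-25-3p: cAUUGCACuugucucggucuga
miR-92b-3p: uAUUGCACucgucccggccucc
miR-107-3p: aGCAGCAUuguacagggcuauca
miR-103-3p: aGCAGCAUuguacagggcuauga

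The remaining families are given by their counts, each against 30 rises and 26 falls of 216. In the miR-17-92 group with its relatives, 8 of 22 names were tested, with 1 rise and 0 falls (median log2 fold change 0.49), and 3 rises with library totals, miR-20a-5p and miR-106b-5p joining. In the miR-221 and miR-222 list 3 of 4 were tested, with 1 rise and 0 falls (median 0.41). In the miR-29 family, known for restraining collagen genes, 4 of 7 were tested, with 1 rise, miR-29a-5p, and 0 falls (median -0.42). In the cluster of miR-183, miR-96 and miR-182, known from sensory cells, 3 of 6 were tested, with 0 rises and 1 fall (median -0.66). The fall was miR-182-5p, with 8469 and 6989 CPM in the caput and 2347 and 2919 CPM in the cauda, a log2 fold change of -1.56 (SE 0.19, adjusted p = 0.000870). The miR-191 and miR-425 list had 2 of 4 tested, with 0 rises and 1 fall (median -0.92). In the epithelial set of miR-205, miR-203 and miR-31, 3 of 6 were tested, with 0 rises and 1 fall, miR-31-5p (median 0.02), and library totals added 1 rise, miR-205-5p. For the miR-146, miR-375, miR-204 and miR-9 lists the tested names were 2 of 4, 1 of 2, 1 of 3 and 2 of 2, with 1, 1, 1 and 2 falls and 0 rises.

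No call by limma-voom fell on 5 further families. They were miR-30 (9 of 11 tested, median log2 fold change 0.29), the miR-15 and miR-16 group (6 of 12, 0.21), the miR-23, miR-27 and miR-24 clusters (6 of 10, 0.39), the miR-99, miR-100 and miR-125 clusters (8 of 11, -0.44) and miR-181 (6 of 9, 0.38). An unadjusted p below 0.05 was found for 3, 3, 3, 2 and 3 of their members in that order, against 109 of all 216, and the quasi-likelihood and Wald tests called 0 in each. Library totals called 1 member of the miR-99 list, miR-99a-5p, as higher. The miR-200 family, which holds cells in an epithelial state, had 8 of 9 names tested and 0 called by limma-voom, the quasi-likelihood test or the Wald test (median -0.32). Library totals called 1 of them higher, miR-200b-3p, and 3 had an unadjusted p below 0.05. miR-200b-3p had 3492 and 2964 CPM in the caput and 5067 and 7026 CPM in the cauda, while miR-200c-3p had 4415 and 3874 CPM in the caput and 1858 and 2824 CPM in the cauda. The first was higher in both cauda libraries and the other lower, with log2 fold changes of 0.89 (adjusted p = 0.00991) and -0.86 (adjusted p = 0.0159), each under 2-fold. miR-429-3p had 4247 and 3813 CPM in the caput and 2116 and 2738 CPM in the cauda (log2 fold change -0.75, adjusted p = 0.0152).

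**Figure D3:**
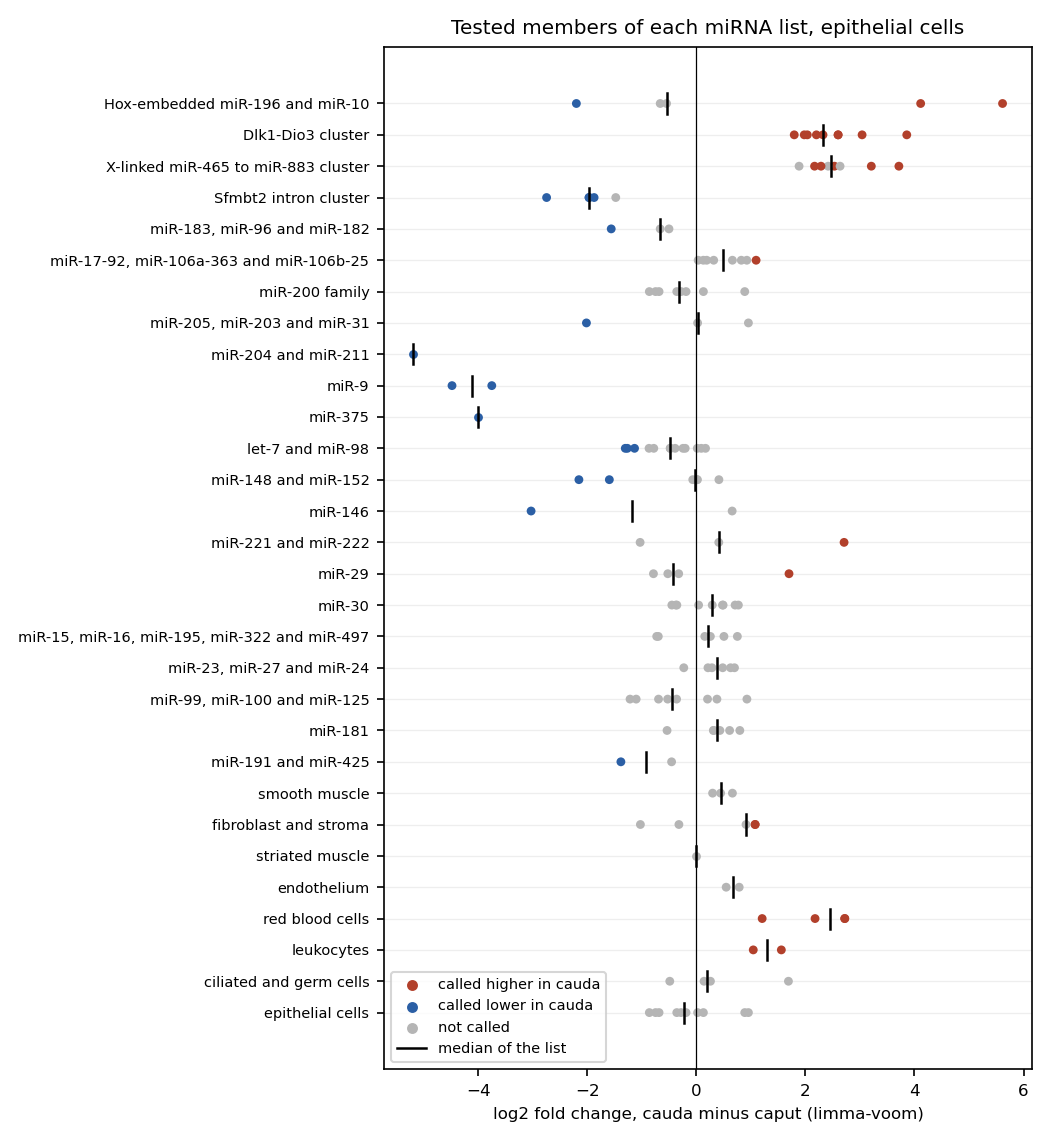
Each point is a tested member of a miRNA list, placed by the log2 fold change, cauda minus caput, in epithelial cells, in red where called higher in the cauda, blue where called lower and grey where not called; the bar is the median of the tested members. Tested members of the Dlk1-Dio3, X-linked, red blood cell and leukocyte lists lie to the right of 1. Those of the Sfmbt2, miR-204, miR-9 and miR-375 lists lie to the left of -1. On both sides the count filter contributes for members that passed in 1 region.

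Marker lists of other cell types are given next. In the red blood cell list, 4 of 7 names were tested and 4 rose, against 30 of 216 (median log2 fold change 2.45), 2 of them with identical counts, and its summed share of counts was 0.0689 and 0.0609% in the caput and 0.521 and 0.338% in the cauda. Its most abundant entry was miR-486-5p, which shares its counts with miR-3107-5p and had 302 and 252 CPM in the caput and 2522 and 1302 CPM in the cauda. miR-451, the defining erythroid miRNA, had 140.3 and 113 CPM in the caput and 354 and 235 CPM in the cauda. Both were higher in the cauda without overlap, with log2 fold changes of 2.72 (SE 0.39, adjusted p = 0.00136) and 1.21 (SE 0.30, adjusted p = 0.0166). miR-486-5p was called in all 6 fits with a library left out. miR-451 was not called without caput library 1 (adjusted p = 0.0694) or caput library 2 (0.119), and without cauda library 1 its log2 fold change was 0.95. The call of miR-144-3p, which passed the filter through the cauda alone, was lost without the same 3 libraries (adjusted p = 0.114, 0.171 and 0.113). The 3 names that passed in both regions all rose, against 19 of 174. No name of this list was at 0 in all 4 libraries.

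In the leukocyte list, 2 of 8 names were tested and 2 rose, against 30 of 216 (median 1.30), with 0.0766 and 0.0449% of counts in the caput and 0.151 and 0.161% in the cauda. The most abundant was miR-142-5p, found in most blood cells, with 602 and 333 CPM in the caput and 948 and 905 CPM in the cauda, and the other was the lymphocyte miRNA miR-150-5p, with 215 and 123 CPM in the caput and 556 and 412 CPM in the cauda. Both cauda libraries were above both caput libraries in each. The log2 fold changes were 1.04 (SE 0.28, adjusted p = 0.0225) and 1.56 (SE 0.34, adjusted p = 0.00901). The quasi-likelihood test left miR-142-5p just under 2-fold (log2 fold change 0.99). So did testing every miRNA of at least 1 count (0.93) and requiring at least 10 counts in each caput and cauda library (0.97). Its call was also lost without caput library 2 (log2 fold change 0.62) or cauda library 2 (1.08). That of miR-150-5p was lost without caput library 2 (adjusted p = 0.0895). miR-155-3p and miR-223-5p were at 0 in all 4 libraries, and miR-223-3p had 4 and 1 counts in the caput and 4 and 0 in the cauda.

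The fibroblast and stroma list had 5 of 6 names tested, with 2 rises, 1 set of identical counts, and 0 falls, against 30 and 26 of 216 (median 0.91), and 3 rises with library totals, miR-199b-5p joining. Its share of counts was 0.266 and 0.312% in the caput and 0.667 and 0.548% in the cauda. The 2 rises were miR-199a-3p and miR-199b-3p with their identical counts, 1185 and 1291 CPM in the caput and 3179 and 2125 CPM in the cauda (log2 fold change 1.08, SE 0.22, adjusted p = 0.00778). The call was lost without caput library 1 (adjusted p = 0.0683) or caput library 2 (0.0629), and without cauda library 1 the log2 fold change was 0.85. miR-214-3p, whose gene lies in Dnm3os with Mir199a-2, had 125 and 129 CPM in the caput and 74.6 and 47.9 CPM in the cauda. It was lower in both cauda libraries, with a log2 fold change of -1.02 (adjusted p = 0.0575), opposite in sign to miR-199a-3p. The miR-199a-3p sequence also comes from Mir199a-1 and Mir199b, which lie elsewhere, and the mature counts do not tell these genes apart. miR-199a-5p, which was not called, had a log2 fold change of -0.32.

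The smooth muscle list had 3 of 4 names tested and 0 called by limma-voom, the quasi-likelihood test or the Wald test, with 0 at an unadjusted p below 0.05 (median 0.45). For this and the lists below, 56 of all 216 were called and 109 had an unadjusted p below 0.05. Its share of counts was 12.8 and 18.7% in the caput and 31.9 and 18.5% in the cauda, so that the regions overlap and cauda library 1 stands highest. The endothelium list, miR-126-5p and miR-126-3p, had 2 of 2 tested and 0 called by the same tests, with 2 at an unadjusted p below 0.05 (median 0.67), and 3.17 and 2.44% of counts in the caput and 5.37 and 5.45% in the cauda. miR-126-5p, the more abundant, had 32456 and 23251 CPM in the caput and 52724 and 42614 CPM in the cauda, higher in both cauda libraries by a log2 fold change of 0.79 (SE 0.20, adjusted p = 0.0176). The striated muscle list had 1 of 8 tested, miR-133a-3p, with 0 called and 0 at an unadjusted p below 0.05 (log2 fold change 0.00), and 0.0333 and 0.0354% of counts in the caput and 0.0445 and 0.0369% in the cauda. In the list of ciliated and germ cells, led by miR-34c-5p, 4 of 6 were tested and 0 called by limma-voom (median 0.20), with 1 at an unadjusted p below 0.05, miR-34b-3p. That miRNA was called higher by the quasi-likelihood test, the Wald test and with size factors, and miR-449a-3p was at 0 in all 4 libraries. The epithelial list had 10 of 13 tested and 0 called by limma-voom, the quasi-likelihood test or the Wald test (median -0.23), with 4 at an unadjusted p below 0.05. Library totals called 2 of them higher, miR-205-5p and miR-200b-3p. miR-205-5p had 11206 and 10831 CPM in the caput and 20275 and 22532 CPM in the cauda, without overlap between the regions, with a log2 fold change of 0.96 (SE 0.15, adjusted p = 0.00215). The part of any of these cell types in the 56 called miRNAs was not tested.

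Among rises outside the lists, miR-190-5p had 18.7 and 19.4 CPM in the caput and 93.3 and 148 CPM in the cauda, and it passed the count filter through the cauda alone. Its libraries are close together in the caput and lie well above in the cauda, with a log2 fold change of 2.51 (SE 0.54, adjusted p = 0.00866) that was not called without caput library 1 (adjusted p = 0.0683) or caput library 2 (0.0682). By chromosome, against 22 rises and 21 falls of 171 matched miRNAs, the genes of chromosome 12 held 9 rises and 0 falls among 12 tested miRNAs and those of the X chromosome 7 rises and 1 fall, miR-672-5p, among 24. Of these rises, 5 of the 9 and 3 of the 7 passed the count filter through the cauda alone. Chromosomes 11 and 6 held 2 rises and 3 falls each, among 20 and 12 tested miRNAs. A host gene on the same strand was annotated for 23 of the 43 called miRNAs with a matched sequence and for 118 of the 171 matched in all.

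Levels in the corpus, which lies between the 2 regions, are given beside them from the same 6 libraries and without a test. The corpus libraries held 127111 and 89039 counts, and by totals alone 10 counts equalled 78.7 and 112 CPM. Some positions of the corpus therefore rest on few counts, such as 4 and 1 for miR-9-5p. For 15 of the 30 rises the mean CPM of the corpus lay between those of caput and cauda, for 7 it lay above both and for 8 below both. The 7 were miR-196a-5p, miR-190-5p, miR-92a-3p and the X-linked miR-881-3p, miR-465c-5p, miR-871-3p and miR-470-5p. miR-196a-5p had 919 and 1136 CPM in the corpus libraries, and miR-196b-5p, which lay between, had 1203 and 1218. The 8 included miR-486-5p with 146 and 348 CPM, miR-451 with 65.0 and 51.2 and miR-142-5p with 512 and 379, which are blood cell miRNAs. Among the 26 falls the corpus lay between for 20, above both for 1, miR-1251-5p, and below both for 5. miR-204-5p had 7139 and 5454 CPM in the corpus, and miR-375-3p had 2057 and 1637. miR-148a-3p had 101081 and 74201 CPM, between those of the 2 regions, and miR-9-5p had 32.5 and 10.2 CPM, near those of the cauda.

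Both arms of the hairpin were tested for 32 precursor names, and the log2 ratio of 5p to 3p counts was compared between caput and cauda. The arms changed in the same direction for 23 of 32. The ratio differed for 1 of 32 (3.12%), miR-29a, and 5 had an unadjusted p below 0.05. In miR-29a the 5p arm made up 0.746% of the counts of both arms in the caput and 3.11% in the cauda. The log2 ratio was -6.86 and -7.19 in the caput and -4.71 and -5.35 in the cauda, without overlap, a difference of 2.0 (SE 0.33, adjusted p = 0.0473). This call was lost with the replicate number as a block, which called 0 ratios, and in each of the 6 fits with a library left out. miR-29a-5p itself had 46.8 and 29.1 CPM in the caput and 160.4 and 90.9 CPM in the cauda, and miR-29a-3p had 5631 and 4478 CPM in the caput and 4242 and 3795 CPM in the cauda. The 5p arm was higher in the cauda (log2 fold change 1.70, adjusted p = 0.0176, lost without caput library 1 or 2 with adjusted p = 0.0683 and 0.120), and the 3p arm had a log2 fold change of -0.32 (adjusted p = 0.169). The 2 strands are shown because they carry different seeds.
miR-29a-5p: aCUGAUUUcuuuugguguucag
miR-29a-3p: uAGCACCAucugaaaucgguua
In miR-34b the 5p arm made up 74.6% in the caput and 50% in the cauda (difference of log2 ratios -1.55, adjusted p = 0.0988).

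The same contrast in whole tissue, from 3 caput and 3 cauda libraries that share no sample with the cells, called 189 of 355 miRNAs (53.2%). These caput libraries held 1724443 to 2135501 counts and the cauda libraries 1457959 to 1777731, against at most 362867 in a library of the cells. With more libraries and greater depth, this share is not like for like with the 25.9% of the cells, and the part of depth was not tested. The 56 called in epithelial cells and these 189 had 43 in common with the same direction, which is 76.8% of the 56 and 22.8% of the 189. Of the 30 epithelial rises, whole tissue called 23 as rises, did not call 5 and did not test 2. Of the 26 falls it called 20 as falls and did not call 6. A test of the difference itself, the interaction of preparation and region over 212 miRNAs matched by name (18 of them by an added letter a), called 39 (18.4%), with the change more positive in epithelial cells for 26 and more negative for 13. Without cauda library 1 of the epithelial cells it called 24. Of the 54 epithelial calls tested in both preparations, 9 had a difference called.

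**Figure D4:**
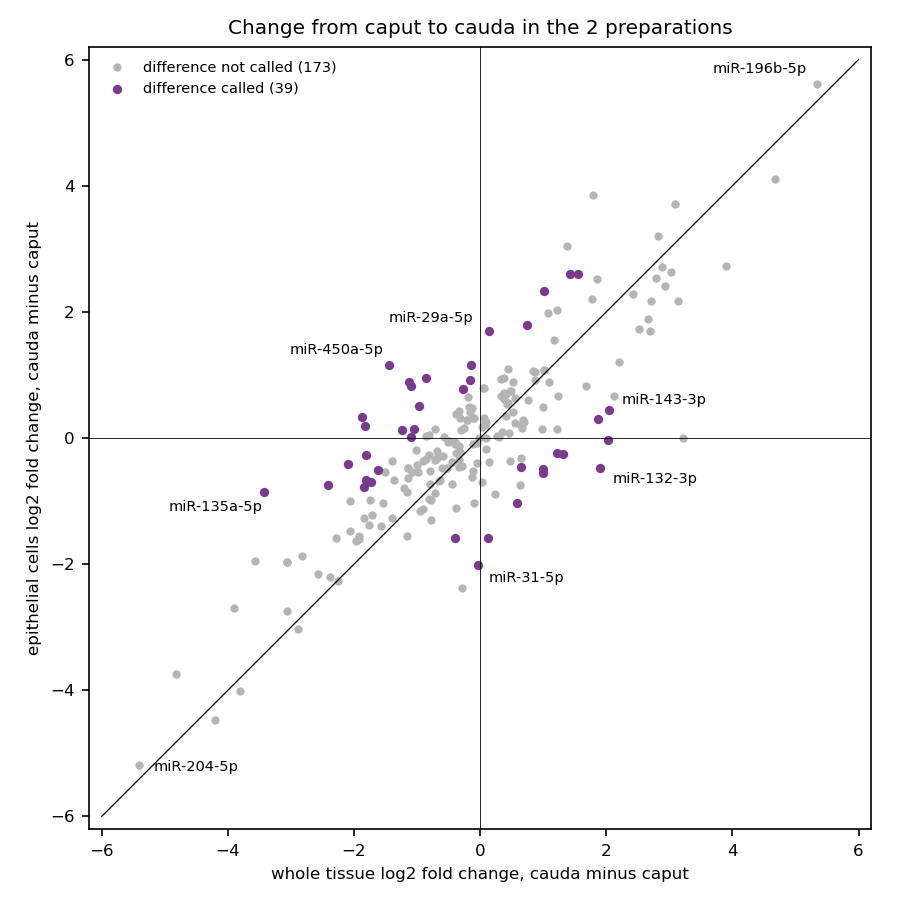
Each point is 1 of 212 miRNAs, with the log2 fold change, cauda minus caput, in whole tissue on the horizontal axis and in epithelial cells on the vertical axis; the line marks equal change. Purple points are the 39 whose change differed by the interaction test, such as miR-31-5p, lower in the cauda in epithelial cells (log2 fold change -2.01) with -0.03 in whole tissue.

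The other 30 of the 39 differences lie outside the epithelial calls, and the 9 are given here. miR-31-5p, given above with 249 and 252 CPM in the caput and 44.8 and 86.1 in the cauda, had 276, 305 and 264 CPM in the caput and 299, 289.7 and 237 CPM in the cauda of whole tissue. Whole tissue thus shows overlap between regions where the cells show none, and the difference of log2 fold changes was -2.0 (SE 0.35, adjusted p = 0.00135). miR-455-5p, which passed the filter through the caput alone, had 71.7 and 42.0 CPM in the caput and 14.9 and 19.1 CPM in the cauda in epithelial cells, and 25.8, 30.1 and 23.7 against 25.9, 28.1 and 33.1 CPM in whole tissue (difference -1.75, SE 0.44, adjusted p = 0.0116). The epithelial fall of miR-455-5p was itself lost with library totals (adjusted p = 0.0656), the replicate number as a block (0.0512) and the Wald test (0.124). It was also lost without any one of the 4 libraries. miR-574-3p had 221 and 197 CPM in the caput and 78.4 and 57.4 CPM in the cauda (difference -1.21, adjusted p = 0.0198), and its fall was lost without caput library 1 (adjusted p = 0.0523). On the rising side, miR-127-3p, miR-434-3p, miR-410-3p and miR-300-3p had larger log2 fold changes in epithelial cells, by 1.04, 1.03, 1.17 and 1.29, with standard errors of 0.22, 0.36, 0.33 and 0.45 and adjusted p-values of 0.00497, 0.0462, 0.0200 and 0.0479. All 4 belong to the Dlk1-Dio3 list, where the other 5 of 9 tested members had no difference called, against 39 of 212 overall. Of the 4, miR-300-3p passed the count filter of the cells through the cauda alone, which favours higher values there. In whole tissue miR-127-3p had 2693, 2259 and 2434 CPM in the caput and 4199, 4064 and 4094 CPM in the cauda, higher in the cauda without overlap but by under 2-fold. The remaining 2 were miR-29a-5p (difference 1.54, adjusted p = 0.0124) and miR-140-5p (difference 1.30, adjusted p = 0.0379). The epithelial rise of miR-140-5p ended with the 4 libraries fitted alone (adjusted p = 0.0514) and with the replicate number as a block (0.0594). It also ended without caput library 1, caput library 2, cauda library 1 or corpus library 1.

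Leaving out 1 library of the cells also ended the call of 8 of these 9 differences, and miR-31-5p kept it in all 10 such fits of both preparations. Without caput library 1 the call ended for miR-455-5p (adjusted p = 0.0643), miR-574-3p (0.0501), miR-434-3p (0.104), miR-410-3p (0.221), miR-300-3p (0.273) and miR-140-5p (0.167). Without cauda library 1 it ended for those 6 (0.0766, 0.0571, 0.199, 0.0821, 0.0955 and 0.210) and for miR-29a-5p (0.0719). Without caput library 2 it ended for miR-574-3p (0.0514), miR-434-3p (0.188), miR-300-3p (0.0694), miR-29a-5p (0.0594) and miR-140-5p (0.0544), and without cauda library 2 for miR-574-3p (0.0796) and miR-300-3p (0.126). Leaving out 1 whole tissue library ended those of miR-434-3p, miR-300-3p and miR-140-5p in 5, 4 and 3 fits. The difference of miR-127-3p was under 2-fold without caput library 1 (0.92), without cauda library 1 (0.74), without 1 caput library of whole tissue (0.97) and with library totals (0.91). Library totals also ended the calls of miR-434-3p (difference 0.91), miR-300-3p (adjusted p = 0.0975) and miR-140-5p (0.0552). Of the 39 differences, 16 were called in all 10 fits with 1 caput or cauda library left out.

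Among the 39, a further 23 were called in whole tissue and not in epithelial cells, 16 as lower and 7 as higher in the cauda. miR-143-3p, known for its high level in smooth muscle, is one that was higher. It had 65728, 55523 and 53123 CPM in the caput and 246054, 220116 and 247940.4 CPM in the cauda of whole tissue. In epithelial cells it had 140454 and 186941 CPM in the caput and 317643 and 153519 CPM in the cauda, where the 2 regions overlap (difference -1.61, SE 0.31, adjusted p = 0.00297). miR-200b-3p went the opposite ways, with 2665, 2662 and 2907 CPM in the caput and 1486, 1103 and 1208 CPM in the cauda of whole tissue, lower in all 3 cauda libraries, and higher in both cauda libraries of the cells (difference 1.98, SE 0.22, adjusted p = 3.81e-05). The fold changes of 22 of the 39 had opposite signs in the 2 preparations. The differences of miR-143-3p and miR-200b-3p were called in all 10 fits with a caput or cauda library left out. The part of the change in miR-143-3p in the other differences was not tested.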

How the data were processed

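Small RNA was sequenced from isolated epithelial cells (2 libraries each of caput, corpus and cauda) and from whole tissue (3 caput, 2 corpus and 3 cauda libraries). The values are expected counts per mature miRNA that the authors deposited without normalization, made from trimmed and screened reads aligned to the mouse genome and to mature mouse miRNAs of miRBase. The submitters' processing notes name Bowtie 1.1.1, CASAVA 1.8.2 and limma, without saying which step each served. The constant 0.001 present in every value of the epithelial table was subtracted, and 0 columns were left out.

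miRNAs with a mean count above 10 in caput or cauda were tested on rounded counts with limma-voom (limma 3.58.1, TMM factors from edgeR 4.0.16, R 4.3.3) in 1 fit of the 6 epithelial libraries. Calls needed a false discovery rate under 0.05 and a 2-fold change. Whole tissue had a fit of its own. The difference between preparations was tested as an interaction over all 14 libraries, with names matched exactly or by an added letter a. Arm ratios were log2 ratios of 5p to 3p counts with 0.5 added. Alternatives were edgeR's quasi-likelihood test, the Wald test of DESeq2 1.42.0, its size factors, library totals, other filters, the 4 caput and cauda libraries alone, a block and leaving out each library. Tables and plots were made with Python 3.11.15, pandas 2.3.3 and matplotlib 3.10.9. The code was tested on simulated data.

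Sequences are RefSeq entries on GRCm38.p6 matched by exact name, and host genes are from GENCODE M21. Named miRNAs are the 15 largest rises and 15 largest falls among calls whose libraries do not overlap, the 10 with the highest mean CPM, every tested member of a list, those past the threshold in the interaction or arm ratio test, and the 5 with the highest mean count on each side among those found in 1 region alone. The lists are families, gene clusters and markers of other cell types. Members and lists were chosen with earlier results of these data known.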

Additional observations from a re-analysis of the deposited data

Results flagged for a closer look

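For 39 of 212 miRNAs (18.4%) the change from caput to cauda differed between preparations by the interaction test. The value in brackets is the log2 fold change in epithelial cells minus that in whole tissue. Among miRNAs called in epithelial cells, the difference was above 0 for miR-29a-5p (1.54), miR-140-5p (1.30), miR-300-3p (1.29), miR-410-3p (1.17), miR-127-3p (1.04) and miR-434-3p (1.03), and below 0 for miR-574-3p (-1.21), miR-455-5p (-1.75) and miR-31-5p (-2.0). Among those called in whole tissue alone, it was above 0 for miR-450a-5p (2.56), miR-135a-5p (2.53), miR-351-5p (2.15), miR-17-5p (2.0), miR-200b-3p (1.98), miR-20a-5p (1.88), miR-92b-3p (1.66), miR-429-3p (1.64), miR-423-5p (1.51), miR-200a-3p (1.34), miR-423-3p (1.18), miR-183-5p (1.14), let-7d-3p (1.08), miR-96-5p (1.08), let-7b-3p (1.04) and miR-99b-5p (1.02), and below 0 for miR-676-3p (-1.46), miR-34c-5p (-1.53), miR-145-3p (-1.58), miR-378-3p (-1.59), miR-143-3p (-1.61), miR-193-3p (-2.06) and miR-132-3p (-2.37). Where neither preparation was called, it was above 0 for miR-205-5p (1.78), miR-322-5p (1.44), miR-106b-5p (1.06) and miR-30a-3p (1.03), and below 0 for miR-218-5p (-1.12), miR-378-5p (-1.55) and miR-214-3p (-1.63). Of the 39, 16 were called in all 10 fits with 1 caput or cauda library left out and 14 in 6 to 9 of them. The other 9 were called in at most 5, namely miR-378-5p (1), let-7b-3p (2), miR-300-3p (2), miR-434-3p (2), miR-378-3p (3), miR-92b-3p (3), miR-106b-5p (4), miR-140-5p (4) and miR-676-3p (5). Without epithelial cauda library 1 the difference of miR-34c-5p was -0.74, under 2-fold. With 2 or 3 libraries in a group, no single library was tested for standing apart.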

How the results depend on the processing

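The 56 calls (30 higher and 26 lower in the cauda) became 59 (33 and 26) with edgeR's quasi-likelihood test, 51 (33 and 18) with DESeq2's Wald test, which gave no adjusted p for 9 miRNAs, 56 (32 and 24) with size factors and 58 (39 and 19) with library totals. Of the 56, these called 55, 46, 54 and 48. With every miRNA of at least 1 count 68 of 551 were called (37 and 31), and with the 4 caput and cauda libraries alone 58 (31 and 27). The filter of at least 10 counts in each caput and cauda library left 38 calls of 169 tested, with 17 higher and 21 lower, so that the count of rises depended on this filter.

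Leaving out 1 epithelial library gave 29 to 64 calls, 9 to 34 higher and 16 to 30 lower, with the lowest counts of calls without either caput library (29 each) and the highest without corpus library 2 (64). In such fits the lone sample of a region was assumed to vary like the other groups. Identified miRNAs numbered 211 to 219 when 1 library was left out, 202 with more than 10 counts in both libraries and 192 with the CPM threshold. Whole tissue gave 175 to 196 calls with 1 library left out, and 191, 180, 255 of 875 and 189 with the quasi-likelihood test, library totals, all miRNAs with a count and the block.

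The interaction called 24 to 45 with 1 library left out, 24 without epithelial cauda library 1 and 45 without whole tissue cauda library 3. It called 41 with the quasi-likelihood test, 32 with library totals, 39 of 194 with identical names alone and 38 with the replicate block, without miR-300-3p (adjusted p = 0.0709), let-7b-3p (0.0716) and miR-140-5p (0.0623). The arm ratio of miR-29a was called with a pseudocount of 1 and among 22 precursors with at least 10 counts of each arm, while 0 ratios were called in each of the 6 fits with a library left out.

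Replicate numbers are shared by the regions and the columns of the table run in sets of 1 number, while no label states a shared animal or batch. For caput and cauda libraries of the same number, the deviations from the region means had r = -0.181 over 216 miRNAs. For caput and corpus r was 0.199, and for corpus and cauda it was -0.139. With the number as a replicate block 52 were called (28 higher and 24 lower) and 0 arm ratios. The calls lost were miR-140-5p (adjusted p = 0.0594), miR-455-5p (0.0512), miR-465c-5p (0.0519), miR-467d-5p (0.0576), miR-669a-5p and miR-669p-5p (0.0512). Pairing the numbers crosswise, which was chosen after seeing the data, called 64 (36 and 28), and the cause was not tested.

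The limits are few libraries, 2 per region, pooled mice, and replicates described both as biological and as technical. Depth is shallow, so that many miRNAs of the clusters fall under the count filter. The order of the region-specific counts was reversed by the CPM threshold alone. Markers of muscle, stroma, endothelium and blood are present in the cells and differ in part between regions, and their share in the calls was not tested. Only names with an exact match carry sequences, and differences between family members were not tested.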

Other observations

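The cauda libraries differ more from each other than the caput libraries do. The 9 miRNAs that differ by more than 2-fold between them include miR-143-3p and miR-145-5p (higher in library 1) and the miR-34 group (higher in library 2). 3 pairs of called names carry identical counts, miR-199a-3p with miR-199b-3p, miR-3107-5p with miR-486-5p and miR-669a-5p with miR-669p-5p.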
